A study of Mus musculus with 21 samples.

Results

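The levels of 9 genes of protein folding in the endoplasmic reticulum (ER) and of the unfolded protein response (UPR) were examined in the midbrain of mice given the neurotoxin MPTP with or without irisin. The genes were chosen by name, with earlier results of these data known. They were Hspa5, Hsp90b1, Calr, Hyou1, Pdia4, Dnajb9, Sdf2l1, Herpud1 and Xbp1. All 9 were found in both deposited tables, the one of the pre-treatment experiment with 33829 genes and the one of the delayed treatment experiment with 55385. All 9 also passed the filter on low counts, which left 22641 and 21922 genes to test. RNA-seq covered 21 male C57BL/6 mice, labelled as 6 weeks old, in 7 groups of 3. MPTP is converted in the brain into a toxin that blocks complex I of the mitochondria and damages dopaminergic neurons, and irisin is a peptide that muscle releases from the membrane protein FNDC5.

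Every mouse received intraperitoneal injections for 10 days. In the pre-treatment experiment, control mice received ddH2O for all 10 days, MPTP treated mice received ddH2O for 5 days and then MPTP (30 mg/kg per day) for 5 days, and mice with irisin pre-treatment received irisin (200 μg/kg per day) for 5 days and then MPTP for 5 days. In the delayed treatment experiment, control mice again received ddH2O throughout, the irisin group received ddH2O for 5 days and then irisin for 5 days, MPTP treated mice received MPTP for 5 days and then ddH2O for 5 days, and mice with delayed treatment received MPTP for 5 days and then irisin for 5 days. MPTP was therefore the last agent given in the pre-treatment experiment and the first in the delayed treatment experiment. Irisin without MPTP was given only in the delayed treatment experiment. The tissue was whole tissue with all of its cell types, so that fewer cells of a type and less RNA per cell cannot be told apart. The labels give the 3 mice of a group as replicates and say nothing of litters or days of processing. The p-values set differences between groups against the spread between mice, estimated over all groups of an experiment.

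Proteins that enter the secretory pathway fold in the ER with the help of chaperones and oxidoreductases. When unfolded proteins accumulate, the sensors IRE1, PERK and ATF6 start the UPR, in which the factor XBP1, spliced by IRE1, and the cleaved form of ATF6 raise the transcription of chaperone genes and of genes for ER-associated degradation, while PERK slows translation and favours ATF4. The UPR has been studied in dopaminergic neurons because toxins that act like MPTP can engage it. Among the 9 genes, Hspa5 encodes BiP, the ER member of the HSP70 family that also holds the sensors in check, and Hsp90b1 encodes GRP94, the ER member of the HSP90 family. Calr encodes calreticulin, a calcium-binding lectin chaperone. Hyou1 encodes GRP170, a nucleotide exchange factor for BiP, and Dnajb9 (ERdj4) and Sdf2l1 encode partners of BiP. Pdia4 encodes ERp72, a protein disulfide isomerase. Herpud1 encodes a membrane protein of ER-associated degradation. Xbp1 encodes the transcription factor itself, and counts per gene do not separate its spliced from its unspliced form.

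The genes lie on 8 chromosomes, with coordinates given as in the deposited tables (GRCm38). Hspa5 (ENSMUSG00000026864) is at chr2:34771970-34777547, Hsp90b1 (ENSMUSG00000020048) at chr10:86690209-86705509, Calr (ENSMUSG00000003814) at chr8:84841850-84846934, Hyou1 (ENSMUSG00000032115) at chr9:44379490-44392369 and Pdia4 (ENSMUSG00000025823) at chr6:47796141-47813430. Dnajb9 (ENSMUSG00000014905) is at chr12:44205559-44210326, Sdf2l1 (ENSMUSG00000022769) at chr16:17130138-17132383, Herpud1 (ENSMUSG00000031770) at chr8:94386438-94395377 and Xbp1 (ENSMUSG00000020484) at chr11:5520659-5525893. Of these, 4 overlap other listed genes, of which the most abundant, 1810014B01Rik and Gm25745 within Hsp90b1, had means of 6.69 to 11.04 CPM against 428 and 433 CPM of Hsp90b1 itself. CPM is the count scaled to a library of 1 M (mega) reads, after TMM scaling for differences in composition between libraries.

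What several of the 9 genes share in sequence is the ER stress response element (ERSE), which ATF6 and XBP1 are known to use. The 9 genes were chosen as genes of ER folding and the UPR, so a share of windows above that of all genes follows in part from the choice. The sites are shown as a description and give no independent support. RefSeq promoter windows (GRCm38.p6, from 250 bases before the start site to 50 after it) were at hand for 8 of the 9 genes, all but Hyou1, and were searched on both strands. The exact ERSE, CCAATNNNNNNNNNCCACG, was found in 3 of the 8 windows, against 0.119% of 32841 windows of this length. Each sequence is written 5′ to 3′ on the strand that holds the motif, with the fixed letters in capitals.
Hspa5: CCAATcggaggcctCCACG
Calr: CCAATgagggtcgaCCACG
Hsp90b1, distal: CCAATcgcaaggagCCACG
Hsp90b1, proximal: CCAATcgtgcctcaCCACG
The Hspa5 site (chr2:34772025-34772043) begins 65 bases upstream of the RefSeq start and lies inside the gene as the deposited tables draw it. The Calr site (chr8:84847075-84847093) reaches 162 bases upstream on the strand opposite to the gene. The sites of Hsp90b1 reach 212 bases upstream on the strand of the gene (chr10:86705638-86705656) and 107 bases upstream on the opposite strand (chr10:86705533-86705551).

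With 1 letter of the last 5 left free, which takes in the exact matches, 5 of the 8 windows held the motif against 0.999% of all windows. This added Pdia4 and Herpud1, whose sequences differ from the exact motif by 1 letter.
Pdia4: CCAATcacgggctgCCACT
Herpud1: CCAATggatggcagCCACA
The Pdia4 site (chr6:47813602-47813620) lies on the strand opposite to the gene and the Herpud1 site (chr8:94386411-94386429) on its own strand. The ERSE-II motif, ATTGGNCCACG, was found in Herpud1 alone among the 8 windows, against 0.0365% of all windows. It starts 52 bases upstream (chr8:94386377-94386387) and does not overlap the other Herpud1 site.
Herpud1, ERSE-II: ATTGGgCCACG
The core of the UPR element, TGACGTG, was found in Hspa5 alone among the 8 windows and in 2.01% of all windows, and it does not overlap the ERSE there. The windows of Xbp1, Dnajb9 and Sdf2l1 held none of these letters in these forms. These are matches of letters only, and no binding was measured.

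Levels between genes were compared per length, as FPKM (fragments scaled to gene length and library size, as deposited). In control mice of the pre-treatment experiment Calr had the highest level, 103 ± 12.4 FPKM (SD, n = 3), followed by Hsp90b1 with 86.0 ± 0.306 FPKM and Hspa5 with 49.1 ± 2.89 FPKM. Dnajb9 (21.4 ± 1.74 FPKM), Herpud1 (19.1 ± 3.35 FPKM) and Xbp1 (16.4 ± 1.29 FPKM) came next, and in this order each overlapped its neighbour. Pdia4 (12.3 ± 0.794 FPKM), Hyou1 (7.35 ± 0.427 FPKM) and Sdf2l1 (3.92 ± 0.320 FPKM) followed without overlap between neighbours.

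In control mice of the delayed treatment experiment the first 3 genes kept this order, with Calr at 167 ± 10.0 FPKM, Hsp90b1 at 96.1 ± 9.96 FPKM and Hspa5 at 71.6 ± 12.9 FPKM, without overlap between neighbours. Herpud1 (32.3 ± 1.94 FPKM) and Pdia4 (26.2 ± 1.71 FPKM) came before Dnajb9 (23.9 ± 1.44 FPKM). Sdf2l1 (11.6 ± 1.98 FPKM), Hyou1 (11.4 ± 0.563 FPKM) and Xbp1 (11.03 ± 0.907 FPKM) overlapped each other. In the plot of FPKM by group, every group mean of the delayed treatment experiment lay above every one of the pre-treatment experiment in 7 genes, all but Hsp90b1 and Xbp1. The means were 11.2 to 13.4 against 3.92 to 5.87 FPKM for Sdf2l1, 32.2 to 34.6 against 16.04 to 21.7 FPKM for Herpud1 and 159 to 167 against 103 to 112 FPKM for Calr. Those of Xbp1 were lower, 11.03 to 11.4 FPKM against 11.8 to 19.2 FPKM. The experiments were normalized apart and had no group of mice in common, so no test was made between them.

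**Figure D1:**
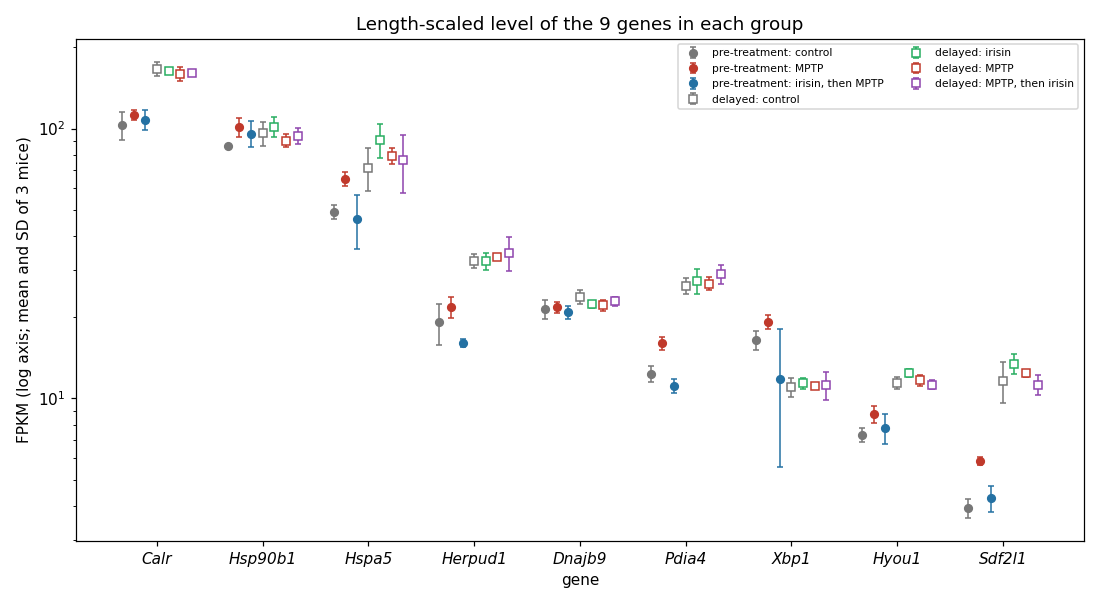
FPKM (log axis) of the 9 genes in each of the 7 groups. Points are means and bars SDs of 3 mice, filled circles belong to the pre-treatment experiment and open squares to the delayed treatment experiment. Calr, Hsp90b1 and Hspa5 lie on top in every group, and Sdf2l1 spans the range from 3.92 FPKM in pre-treatment control mice to 13.4 FPKM with irisin alone.

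Total counts were 66.7 to 75.6 M per mouse in the pre-treatment experiment and 48.8 to 77.2 M in the delayed treatment experiment, and the count of any of the 9 genes in a mouse was 320 or more. The counting error (the square root of the mean count of a group, as a percent of it) was 0.544 to 2.18% in 8 of the genes, below the coefficient of variation between mice of each group. For Sdf2l1, the gene with the lowest counts, it was 3.15 to 5.47%, against a coefficient of variation of 3.38 to 17.2%, so that in some groups counting error was about as large as the spread between mice. Markers of dopaminergic neurons (5 genes) were present in every mouse, with a summed level of 498 to 819 CPM and of 443 to 686 CPM in the 2 experiments, as were those of neurons, astrocytes, oligodendrocytes, microglia, endothelial cells and blood. Markers of choroid plexus (6 genes) differed widely within groups. In the pre-treatment experiment, MPTP mouse 2 had 1646 CPM of them and the other 8 mice had 10.7 to 27.6 CPM. In the delayed treatment experiment they ranged from 39.7 to 1662 CPM, and the highest mouse had 1510 CPM in the control group, 1549 CPM in the MPTP group, 1662 CPM with delayed treatment and 296 CPM with irisin alone.

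The first question was whether the genes differed between MPTP treated and control mice when MPTP was the last agent given. In the pre-treatment experiment, the fitted level of all 9 genes was higher in MPTP treated mice than in control mice, with a median log2 fold change of 0.23 (range 0.01 to 0.57) against a median of -0.00182 over all tested genes. The threshold was an adjusted p of 0.05 from edgeR's quasi-likelihood test, adjusted over all tested genes by Benjamini-Hochberg, and 0 of the 9 genes passed it, as did 0.0221% of all tested genes (5 of 22641), and the smallest adjusted p was 0.57. An unadjusted p under 0.05 was reached by 5 of the 9, all higher with MPTP, against 3.36% of all genes in that direction. In 6 of the 9 genes, all 3 MPTP treated mice lay above all 3 control mice, against 5.71% of all genes. Because the 9 genes were chosen with earlier results of these data known, these counts describe them and are not independent support.

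Sdf2l1 had the largest difference. Its level was 5.32, 4.72 and 4.70 CPM in control mice and 7.28, 6.99 and 7.68 CPM in MPTP treated mice. The groups did not overlap, and the log2 fold change was 0.57 (standard error 0.13, adjusted p = 0.579 by the edgeR test). For Hspa5, control mice had 243, 224 and 236 CPM and MPTP treated mice 299, 297 and 333 CPM. The lowest MPTP treated mouse was above the highest control mouse. The log2 fold change was 0.40 (standard error 0.14, adjusted p = 0.819 by the edgeR test).

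Pdia4 showed the same order, with 35.1, 31.9 and 33.3 CPM in control mice and 40.8, 43.1 and 45.9 CPM in MPTP treated mice. Its log2 fold change was 0.37 (standard error 0.08, adjusted p = 0.57 by the edgeR test). With DESeq2, which was run as an alternative, Pdia4 (log2 fold change 0.37, adjusted p = 0.0265) and Sdf2l1 (0.58, adjusted p = 0.0312) passed the threshold, and the other 7 genes did not. DESeq2, run without the filter on low counts, called 91 of 33829 genes in this comparison where edgeR called 5 of 22641.

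Hyou1 and Hsp90b1 differed by less. Hyou1 had 63.6, 59.7 and 56.9 CPM in control mice and 74.5, 73.1 and 65.8 CPM in MPTP treated mice, a log2 fold change of 0.24 (standard error 0.10). Hsp90b1 had 387, 402 and 387 CPM in control mice and 421, 459 and 496 CPM in MPTP treated mice, a log2 fold change of 0.23 (standard error 0.09). Neither gene overlapped between the groups, and both were among the 5 with an unadjusted p under 0.05, together with Sdf2l1, Hspa5 and Pdia4. Xbp1 also did not overlap, with 63.5, 56.2 and 60.9 CPM in control mice and 66.1, 69.1 and 75.1 CPM in MPTP treated mice. Its standard error of 0.36 exceeded its log2 fold change of 0.22, and was 0.10 when a single low mouse of the irisin pre-treatment group, described below, was left out of the fit.

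The other 3 genes overlapped between the groups. Herpud1 was at 50.5 ± 8.74 CPM in control mice and 57.0 ± 4.58 CPM in MPTP treated mice, and Calr at 334 ± 35.5 and 364 ± 17.7 CPM. Dnajb9 was at 61.7 ± 5.18 and 62.3 ± 3.10 CPM, and its log2 fold change of 0.01 was the smallest of the 9. Without MPTP mouse 2, which carried the choroid plexus markers, the median over the 9 genes was again 0.23, and the largest difference was that of Sdf2l1 (0.61). In that fit 3 of the 9 genes had an unadjusted p under 0.05, against 1193 of 23325 genes in either direction. The count among the 9 genes was also 3 without control mouse 2, control mouse 3 or MPTP mouse 3. Over all genes it was 2018 of 23433, 1155 of 23382 and 1123 of 23416 in these fits.

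**Figure D2:**
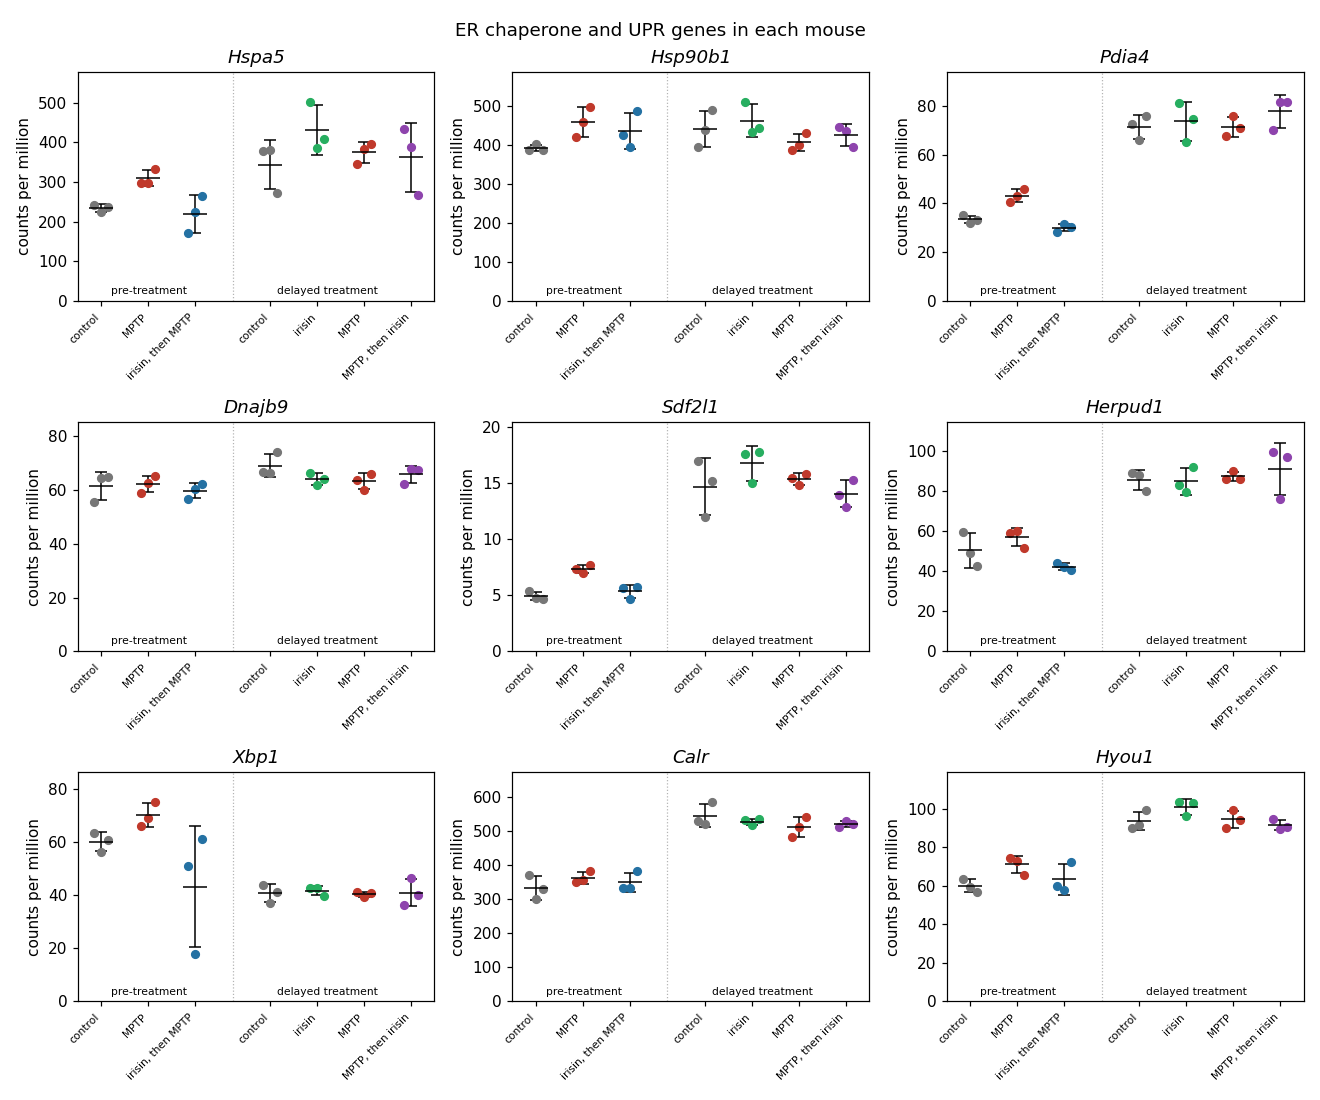
CPM of each of the 9 genes in each of the 21 mice, by group, with separate axes per gene that start at 0. Points are mice, and the horizontal line and bars are the mean and SD of 3 mice. In the pre-treatment experiment the MPTP treated mice lie above control mice for Hspa5, Hsp90b1, Pdia4, Sdf2l1, Xbp1 and Hyou1, and 1 mouse with irisin pre-treatment stands apart in Xbp1 at 17.7 CPM.

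The next question was whether irisin given before MPTP altered these levels. With irisin pre-treatment, the fitted level of all 9 genes was lower than in mice given MPTP alone. The median log2 fold change was -0.43 (range -0.70 to -0.06) against 0.00309 over all tested genes. The MPTP treated mice are the same as in the comparison above, so the 2 comparisons share them and are not independent. The limit from the choice of the 9 genes holds here too. With edgeR 0 of the 9 genes passed an adjusted p of 0.05, as did 0.0707% of all tested genes (16 of 22641). An unadjusted p under 0.05 was reached by 4 of the 9, all lower with irisin, against 3.29% of all genes in that direction, and 5 of the 9 did not overlap between the groups, all lower, against 7.08% of all genes.

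Pdia4 had the strongest evidence of the 9. Mice with irisin pre-treatment had 28.5, 31.4 and 30.5 CPM, against 40.8 to 45.9 CPM in MPTP treated mice. All 3 lay below every MPTP treated mouse and also below every control mouse, and Pdia4 ranked 33 of 22641 genes by p-value. Its log2 fold change against MPTP treated mice was -0.52 (standard error 0.08), with an adjusted p of 0.0721 by edgeR's quasi-likelihood test. Over the alternatives, the adjusted p ranged from 1.76e-05 with DESeq2, the only one under 0.05, to 0.343 with edgeR without 1 mouse of irisin pre-treatment.

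Hspa5 and Sdf2l1, both also higher with MPTP alone, had lower values with irisin. Hspa5 was at 171, 224 and 266 CPM with irisin pre-treatment against 297 to 333 CPM with MPTP alone. The log2 fold change was -0.49 (standard error 0.14, adjusted p = 0.548 by the edgeR test). The 3 irisin mice differed from each other more than the mice of the other groups did, with a coefficient of variation of 21.8% against 4.09% in control mice and 6.47% in MPTP treated mice. Sdf2l1 was at 5.63, 4.66 and 5.70 CPM with irisin pre-treatment, and its log2 fold change was -0.46 (standard error 0.13, adjusted p = 0.537 by the edgeR test). All of these values lay below those of MPTP treated mice and overlapped with those of control mice.

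Herpud1, the degradation component among the 9, had 44.1, 42.2 and 40.5 CPM with irisin pre-treatment against 58.9, 60.3 and 51.7 CPM with MPTP alone. The groups did not overlap, and the log2 fold change was -0.43 (standard error 0.12, adjusted p = 0.548 by the edgeR test). The transcription factor Xbp1 had 50.9, 17.7 and 61.2 CPM with irisin pre-treatment and 66.1 to 75.1 CPM with MPTP alone. It too did not overlap, yet its difference of -0.70 on the log2 scale (standard error 0.36, adjusted p = 0.872 by the edgeR test) rested largely on the mouse at 17.7 CPM. Without that mouse it was -0.32 (standard error 0.11), with an adjusted p of 0.882 by the edgeR test.

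The remaining 4 genes overlapped between the groups. Hyou1 had 59.8, 57.9 and 72.4 CPM with irisin pre-treatment, a log2 fold change of -0.17 (standard error 0.10). Hsp90b1 was at 435 ± 46.4 CPM, Calr at 350 ± 28.1 CPM and Dnajb9 at 59.8 ± 2.76 CPM, with log2 fold changes of -0.07, -0.06 and -0.06. The median over the 9 genes was -0.39 without MPTP mouse 2. In that fit 4 of the 9 genes again had an unadjusted p under 0.05, against 1304 of 23325 genes in either direction.

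Mice with irisin pre-treatment were also compared with control mice. The median log2 fold change over the 9 genes was -0.04 (range -0.48 to 0.15), and 0 of the 9 passed the threshold or reached an unadjusted p under 0.05 with edgeR, while 0.0707% of all genes passed and 7.12% reached that p. Hsp90b1 had the highest value of the 9 (0.15, standard error 0.09) and Xbp1 the lowest (-0.48, standard error 0.36). Pdia4 was the only one without overlap between the groups, lower with irisin (log2 fold change -0.15, standard error 0.08, adjusted p = 0.749 by the edgeR test), against 13.6% of all genes that did not overlap in either direction. A p that misses the threshold does not show that levels were equal, and with 3 mice against 3 an exact two-sided permutation test of a single gene cannot give a p below 0.1.

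**Figure D3:**
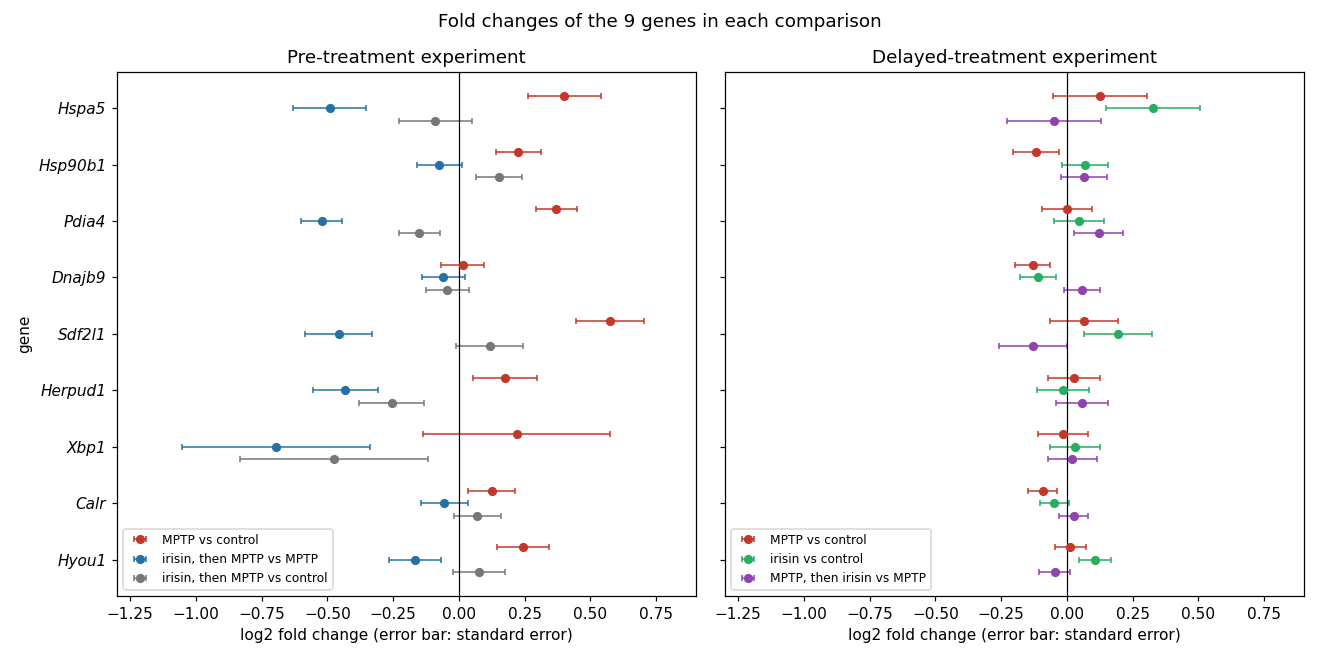
Log2 fold change of each of the 9 genes in 3 comparisons of the pre-treatment experiment (left) and 3 of the delayed treatment experiment (right), from edgeR, with standard errors as bars. On the left the values of MPTP treated against control mice lie at or above 0 and those of irisin pre-treatment against MPTP lie below 0. On the right all values lie between -0.13 and 0.33.

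In the delayed treatment experiment, where MPTP treated mice had 5 days of ddH2O after MPTP, the 9 genes had a median log2 fold change of 0.00143 (range -0.13 to 0.13) between MPTP treated and control mice. With edgeR, 0 of the 9 passed the threshold, against 0.132% of all genes, and 0 had an unadjusted p under 0.05, against 8.33%. The value of Pdia4 was 0.00 (standard error 0.09) and that of Sdf2l1 was 0.07 (standard error 0.13). Dnajb9 had 66.9, 66.3 and 74.2 CPM in control mice and 63.7, 60.01 and 65.9 CPM in MPTP treated mice. It was the only one of the 9 without overlap, lower with MPTP, against 16.2% of all genes without overlap in either direction. Its log2 fold change was -0.13 (standard error 0.07, adjusted p = 0.655 by the edgeR test).

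Hspa5 varied within groups here. It was at 378, 381 and 274 CPM in control mice and at 346, 383 and 397 CPM in MPTP treated mice, a log2 fold change of 0.13 (standard error 0.18). The standard error was larger than the value, and the groups overlapped. The value without control mouse 3, the lowest control mouse, was -0.01.

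Irisin alone against control mice gave a median log2 fold change of 0.05 (range -0.11 to 0.33) over the 9 genes. With edgeR, 0 of the 9 passed the threshold, as 0.109% of all genes did, and 0 had an unadjusted p under 0.05, as 8.97% of all genes did. Hspa5 had 503, 385 and 408 CPM with irisin alone, all above the 3 control mice, and was the only one of the 9 without overlap, against 15.1% of all genes in either direction. Its log2 fold change was 0.33 (standard error 0.18, adjusted p = 0.608 by the edgeR test). Sdf2l1 (0.19, standard error 0.13) and Hyou1 (0.11, standard error 0.06) came next, and the other 6 genes had values between -0.11 and 0.07. Choroid plexus markers were lower with irisin alone (62.9 to 296 CPM) than in control mice (239 to 1510 CPM), and their part in these values was not tested.

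Delayed irisin treatment after MPTP was compared with MPTP followed by ddH2O. The median log2 fold change was 0.03 (range -0.13 to 0.12), 0 of the 9 genes passed the threshold with edgeR against 0.00456% of all genes, and 0 had an unadjusted p under 0.05, against 3.90%. In 0 of the 9 genes were the groups without overlap, against 10.7% of all genes. Pdia4, the gene with the strongest evidence for a lower level under pre-treatment, had 70.0, 81.6 and 81.7 CPM with delayed irisin and 67.6, 75.8 and 71.1 CPM without (log2 fold change 0.12, standard error 0.09). Sdf2l1 had 13.9, 12.9 and 15.3 CPM with delayed irisin and 15.5, 14.8 and 15.8 CPM without (-0.13, standard error 0.13).

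Hspa5 was at 435, 388 and 266 CPM with delayed irisin and its groups overlapped widely (log2 fold change -0.05, standard error 0.18). Herpud1 (0.06, standard error 0.10) and Xbp1 (0.02, standard error 0.09), lower under pre-treatment, were close to 0 here. The values of pre-treatment and delayed treatment come from separate experiments with different orders of injection, and the difference between them was not tested.

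The experiment with 4 groups allows a test of whether the difference made by irisin depended on MPTP, as the interaction of irisin and MPTP. With edgeR, 0 of the 9 genes passed the threshold for it, against 0.0411% of all genes, 0 had an unadjusted p under 0.05, against 5.57%, and the smallest adjusted p was 0.916. The values furthest from 0 were those of Hspa5 (-0.38, standard error 0.25) and Sdf2l1 (-0.32, standard error 0.18), and the median was -0.00472. Both values depended on single mice, since that of Hspa5 was -0.19 without mouse 3 of delayed treatment and that of Sdf2l1 was -0.19 without control mouse 2. The standard errors of these interactions were 0.08 to 0.25 on the log2 scale.

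Other genes of the same pathways were read from lists of related genes. Over all genes, an unadjusted p under 0.05 in either direction was reached by 6.03% in MPTP treated against control mice and by 6.22% in irisin pre-treatment against MPTP. In the comparison of irisin pre-treatment with MPTP alone, 0 of 19 other ER folding genes passed the threshold with edgeR, 1 had an unadjusted p under 0.05 and was higher and 4 were lower, and the median log2 fold change was -0.06. In MPTP treated against control mice the same genes had a median of 0.08, with 1 higher and 1 lower at an unadjusted p under 0.05. The 4 lower genes, which are named here because of their values, were Manf (-0.30), a secreted protein of the ER that binds BiP, Pdia6 (-0.23), another disulfide isomerase, Creld2 (-0.34) and the lectin chaperone Canx (-0.13).

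The ER folding gene with the largest difference was Sdf2, the paralog of Sdf2l1, and it went the opposite way. MPTP treated mice had 29.6, 47.8 and 29.5 CPM, while control mice had 47.3 to 48.5 CPM and mice with irisin pre-treatment 46.5 to 49.5 CPM. Its log2 fold change was -0.42 (standard error 0.17) with MPTP and 0.43 (standard error 0.17) with irisin pre-treatment, and 2 of the 3 MPTP treated mice account for both. In the same 3 MPTP treated mice, in the same order, Sdf2l1 was at 7.28, 6.99 and 7.68 CPM. How the counting treated reads from stretches where Sdf2 and Sdf2l1 are alike is not given in the sources used here. The part of such reads in these values was not tested.

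Of 15 genes of ER-associated degradation, 0 passed the threshold with edgeR in either comparison, and 1 higher and 1 lower gene had an unadjusted p under 0.05 in each. The median log2 fold changes were 0.00 with MPTP and 0.01 with irisin pre-treatment. Edem1, which draws misfolded glycoproteins out of folding, stood on 2 separate levels, with 20.9, 5.72 and 6.46 CPM in MPTP treated mice, 4.06 to 5.81 CPM in control mice and 16.7 to 18.1 CPM with irisin pre-treatment. Its relative Edem3 was at 72.2 ± 2.33 CPM with MPTP alone and 52.6 ± 15.5 CPM with irisin (log2 fold change -0.46, standard error 0.20). Of 11 UPR sensors and transcription factors, 0 passed the threshold with edgeR, 0 (MPTP) and 1 (irisin pre-treatment, lower) had an unadjusted p under 0.05, and the medians were 0.07 and -0.05. Creb3l2, an ER-bound transcription factor, was at 28.8 ± 1.70 CPM with MPTP alone and 23.2 ± 0.649 CPM with irisin (-0.31, standard error 0.12), and Ern2 was under 1 CPM on average in all 3 groups.

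Of 10 tested targets of the PERK and ATF4 arm, 1 passed the threshold with edgeR in irisin pre-treatment against MPTP, against 0.0707% of all genes. This was Atf3, a stress-induced transcription factor. It was at 4.35, 6.30 and 4.85 CPM in MPTP treated mice and at 0.480, 0.746 and 0.316 CPM with irisin pre-treatment, against 1.10, 1.83 and 1.58 CPM in control mice. Atf3 fell with irisin pre-treatment (log2 fold change -3.32, standard error 0.35, adjusted p = 0.0172 by the edgeR test), and the median over the 10 genes was -0.07. Nupr1 had the next largest difference of the 10 (-0.73, standard error 0.49). In MPTP treated against control mice, 0 of the 10 passed the threshold with edgeR, and the median was -0.07. There 1 gene had an unadjusted p under 0.05 and was higher, against 3.36% of all genes in that direction. By sign, 4 of the 10 were above 0 and 6 below. In the delayed treatment experiment Atf3 was at 2.93, 6.49 and 6.47 CPM with irisin alone and 1.49, 1.015 and 4.70 CPM in control mice. It was at 1.34, 1.43 and 1.66 CPM with delayed irisin and 1.80, 1.63 and 1.58 CPM with MPTP alone there. Both pairs of groups overlapped.

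Heat shock chaperones and co-chaperones outside the ER, many of them induced by the factor HSF1, were read beside the ER genes. Most of the list is cytosolic, and Hspd1 and Hspe1 encode the chaperonin of the mitochondrial matrix and its partner. Of 13 genes, 2 passed the threshold and fell with irisin pre-treatment, against 0.0707% of all genes in either direction. An unadjusted p under 0.05 was reached by 9, all lower, against 3.29% of all genes in that direction. Among these were Hspd1 (-0.14) and Hspe1 (-0.18), and the median log2 fold change of the list was -0.23. In MPTP treated against control mice 0 of the 13 passed with edgeR, 4 had an unadjusted p under 0.05, all higher, against 3.36% of all genes, and the median was 0.15. Hspa1b, an inducible HSP70, fell from 20.8 ± 3.61 CPM with MPTP alone to 2.59 ± 0.578 CPM with irisin (log2 fold change -3.00, standard error 0.21, adjusted p = 0.000975 by the edgeR test). Dnajb1, an HSP40 partner of cytosolic HSP70, fell from 83.4 ± 3.58 to 46.7 ± 0.618 CPM (-0.84, standard error 0.11, adjusted p = 0.046). Hspa1a, the neighbour of Hspa1b with nearly the same sequence, was at 20.8 ± 2.01 and 4.94 ± 0.851 CPM (-2.07, adjusted p = 0.0617). Against control mice, Hspa1b was also lower with irisin pre-treatment (-2.27, adjusted p = 0.012 by the edgeR test), and control mice had 12.5 ± 2.002 CPM of it. In the delayed treatment experiment Hspa1b was higher with irisin alone (27.5, 18.3 and 28.6 CPM) than in control mice (9.48, 12.6 and 16.1 CPM). It was at 23.4, 26.2 and 24.8 CPM with delayed irisin and 14.1, 22.3 and 21.5 CPM with MPTP alone there. Neither pair of groups overlapped, and neither difference passed the threshold with edgeR.

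**Figure D4:**
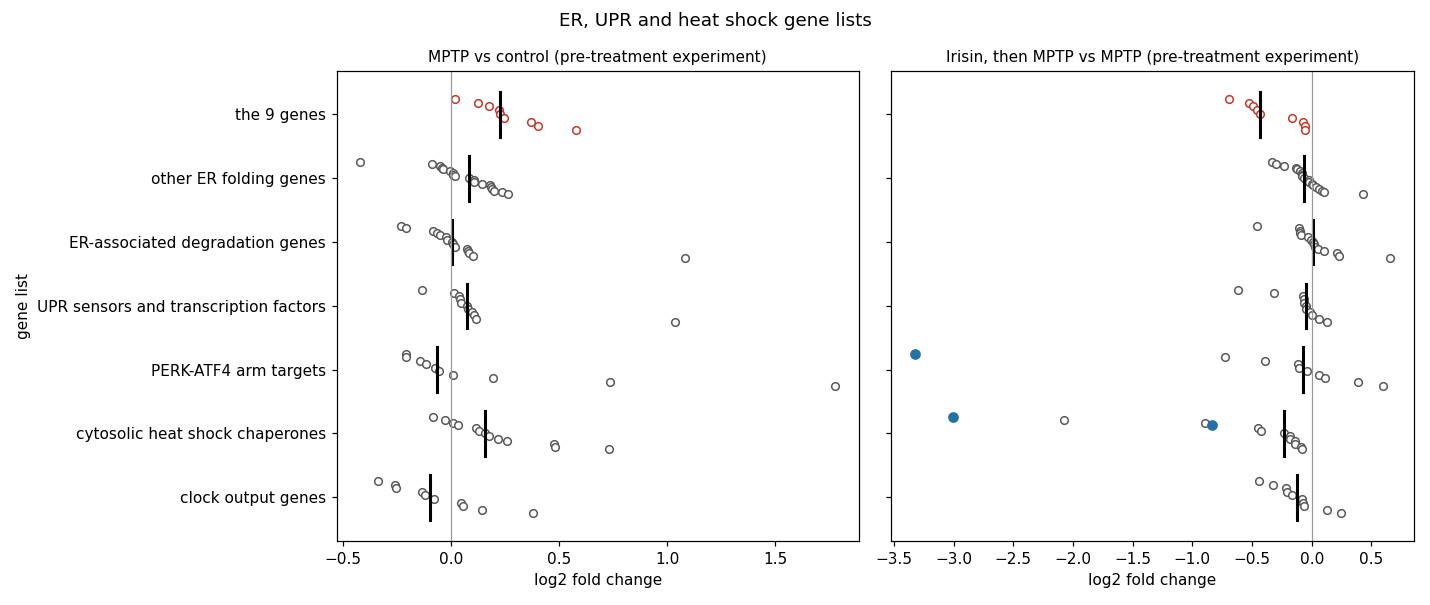
Log2 fold change of each gene in the 9 genes (red) and in 6 other lists (grey), for MPTP treated against control mice (left) and irisin pre-treatment against MPTP (right). The other lists hold ER, UPR and heat shock genes and, for comparison, clock output genes. Filled blue points have an adjusted p under 0.05 with edgeR, open points do not, and the vertical bars are list medians. The 9 genes have medians of 0.23 and -0.43, and the 3 filled points, Atf3, Hspa1b and Dnajb1, belong to other lists.

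Other measures moved in the same comparison. All 5 blood markers were lower with irisin pre-treatment than with MPTP alone at an unadjusted p under 0.05 (edgeR), with a median log2 fold change of -0.93 and a summed level of 231 to 455 CPM against 549 to 810 CPM. Of 10 output genes of the circadian clock, 2 were lower at an unadjusted p under 0.05, namely Per1 (-0.44) and Nr1d1 (-0.33), and the median was -0.12. Choroid plexus markers had a median of -2.42, with 3 of 6 lower at an unadjusted p under 0.05 (edgeR), and a summed level of 10.7 to 27.6 CPM with irisin pre-treatment against 11.8 to 1646 CPM with MPTP alone, where the high value is that of mouse 2. Endothelial markers had a median of 0.26, with 2 of 5 higher and 2 lower at an unadjusted p under 0.05. Markers of neurons, astrocytes, oligodendrocytes and microglia had medians between -0.09 and 0.06. Single markers ranged from -0.47 to 0.13 in astrocytes and from -0.37 to 0.41 in microglia. At an unadjusted p under 0.05 (edgeR), 1 of 4 astrocyte markers was lower and 1 of 5 microglial markers higher. None of the neuron or oligodendrocyte markers reached that p. Markers of dopaminergic neurons had a median of -0.31 (range -0.89 to -0.07), with 1 of 5 lower at that p. Over all genes, 6.22% reached it in either direction. The part of these measures in the values of the 9 genes was not tested.

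In the 4 comparisons of the delayed treatment experiment, 0 genes of these 6 lists passed the threshold with edgeR. Each list had 0 to 4 genes per comparison at an unadjusted p under 0.05 in either direction. The lists with the most such genes are given here. In MPTP treated against control mice, 4 of 10 clock genes were higher, and 2 of 13 heat shock genes higher and 1 lower, against 8.33% of all genes. With irisin alone, 3 of the 13 heat shock genes were higher and 1 lower, against 8.97%. With delayed irisin against MPTP, 3 of 10 PERK and ATF4 targets were higher and 0 lower, against 3.90%. List medians in these 4 comparisons were between -0.08 and 0.10.

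The 10 genes whose CPM went most like that of Hspa5, outside the 9, were found among 12098 genes with a mean of at least 5 CPM in both experiments. The measure was the mean of Pearson's r over the 9 mice and the 12 mice. The first was Dnaja1, a cytosolic HSP40, with a mean r of 0.75 (0.91 over 9 mice and 0.58 over 12), followed by Dgcr2, Phf6, Macrod2, Morf4l2, Zfp369, Reps2, Smad2, Synj2bp and Zbtb33, the last with a mean r of 0.67. The points are single mice that share treatment groups, so r also carries the differences between groups. Of the 8 other ER genes studied here, Hyou1 ranked highest (154, mean r of 0.52) and Dnajb9 lowest (6716, mean r of -0.03). Pdia4 went with Hspa5 in the pre-treatment experiment (r of 0.88) and not in the delayed treatment experiment (r of -0.12).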

How the data were processed

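RNA-seq was made from midbrain of 21 mice. The methods describe nigral tissue taken by hand after perfusion. The authors counted reads per gene with featureCounts and deposited raw counts and FPKM values for each mouse in a table per experiment. The submitters' processing notes also name HISAT, StringTie, edgeR and mm9, while the gene coordinates in the tables match GENCODE release 21 for mouse on GRCm38 in start and end for 92.0% and 94.3% of the genes found in both. Whether counting used the strand is not given in the sources used here.

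For the tests, edgeR 4.0.16 under R 4.3.3 was applied to the raw counts (two-sided quasi-likelihood test, TMM scaling, filterByExpr at its least count of 10 and least total of 15). All groups of an experiment were in 1 fit without covariates, and the Benjamini-Hochberg threshold over the tested genes was 0.05. CPM and SD per group are over 3 mice, and the standard error is the log2 fold change divided by the square root of F. Alternatives were median ratio scaling, no filter, the compared groups only, DESeq2 1.42.0, a block for the replicate number, limma 3.58.1 on log2(FPKM + 1) or log2(FPKM + 0.1) for genes with a mean of at least 0.1 FPKM, and leaving out each mouse. The fold change on a log2(FPKM + pseudocount) scale understates that of low genes. The steps were tested on simulated counts. Within groups, every pair of mice differed by more than sampling noise (chi-square per gene of at least 37.5 over 21 pairs). Tables were handled with Python 3.11.15.

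The 9 genes and the lists were chosen with earlier results of these data known. Named in the text were the 9 genes, from each list the genes past the threshold (at most 5 by p) and the 2 with the largest absolute log2 fold change between irisin pre-treatment and MPTP, and the 10 genes most like Hspa5. Hspd1 and Hspe1 were named outside this rule, as the mitochondrial members of their list. Other names from the lists are marked as chosen after their values were seen.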

Additional observations from a re-analysis of the deposited data

How the results depend on the processing

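The count of the 9 genes past the threshold was 0 in all 7 comparisons and under every alternative but DESeq2, which gave 2 for MPTP against control mice in the pre-treatment experiment (Pdia4 and Sdf2l1) and 1 for irisin pre-treatment against MPTP (Pdia4). The cause was not tested. DESeq2 called 91, 169 and 191 genes over all genes in the 3 pre-treatment comparisons where edgeR called 5, 16 and 16, and 178, 144, 34 and 62 in the 4 delayed ones where edgeR called 29, 24, 1 and 9. DESeq2 was run without the filter on low counts, on 33829 and 33492 genes against 22641 and 21922 with edgeR. The other alternatives, with no mouse left out, gave 2 to 10, 8 to 21 and 2 to 16, and 10 to 28, 14 to 24, 1 to 9 and 3 to 9.

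Same-numbered mice of different groups had correlations of their deviations of -0.103 to 0.160 (1 of 9 over 0.1) and of -0.0838 to 0.0433 (0 of 18). Of the mice, 4 of 9 and 1 of 12 were closest to their own number. The labels give no pairing by replicate number, and these values cannot exclude shared litters or days of processing. With the replicate block, 0 of the 9 genes passed in any comparison, the calls over all genes went from 5, 16 and 16 to 2, 8 and 2 and from 29, 24, 1 and 9 to 17, 14, 1 and 7, and Pdia4 had a log2 fold change of -0.52 and an adjusted p of 0.317 for irisin pre-treatment against MPTP.

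Leaving out 1 mouse moved the median over the 9 genes to 0.21 to 0.28 for MPTP against control mice, -0.43 to -0.32 for irisin pre-treatment against MPTP and -0.0741 to 0.0616 for irisin pre-treatment against control mice. In the delayed treatment experiment the median of 0.00143 ranged from -0.0621 (without control mouse 2) to 0.0375 (without MPTP mouse 1) for MPTP against control mice, that of 0.0455 from 0.00226 (without irisin mouse 1) to 0.113 (without irisin mouse 2) for irisin alone, that of 0.0257 from 0.0154 (without delayed treatment mouse 2) to 0.0502 (without MPTP mouse 3) for delayed irisin against MPTP and that of -0.00472 from -0.0314 (without irisin mouse 3) to 0.0549 (without irisin mouse 1) for the interaction. Leaving out 1 mouse turned the sign of 22 of the 63 log2 fold changes of single genes, all of them uncalled. These ran from -0.0618 to 0.0498 for Dnajb9 (MPTP against control mice, pre-treatment), and, for irisin pre-treatment against control mice, from -0.00271 to 0.143 for Calr, -0.252 to 0.0616 for Hspa5 and -0.0313 to 0.132 for Hyou1. For MPTP against control mice in the delayed treatment experiment they ran from -0.0773 to 0.0391 for Xbp1, -0.0231 to 0.0567 for Hyou1, -0.0513 to 0.0460 for Pdia4, -0.0621 to 0.178 for Sdf2l1, -0.0148 to 0.206 for Hspa5 and -0.0203 to 0.0512 for Herpud1. For irisin alone they ran from -0.00834 to 0.1496 for Hsp90b1, -0.0782 to 0.0310 for Herpud1, -0.0307 to 0.126 for Pdia4, -0.0293 to 0.0872 for Xbp1 and -0.0769 to 0.00779 for Calr. For delayed irisin against MPTP they ran from -0.0152 to 0.0713 for Calr, -0.0129 to 0.173 for Herpud1, -0.0755 to 0.101 for Xbp1 and -0.198 to 0.136 for Hspa5, and for the interaction from -0.0835 to 0.0718 for Hsp90b1, -0.108 to 0.0678 for Xbp1 and -0.00323 to 0.151 for Pdia4. Xbp1 for MPTP against control mice in the delayed treatment experiment was also 0.0113 with limma on log2(FPKM + 1) and 0.0125 on log2(FPKM + 0.1). All other values kept their direction and their side of the threshold. Counting each gene in each comparison under each alternative, these were 634 of 675 values without 1 mouse and 427 of 432 values under the other alternatives.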
